A study of Homo sapiens with 8 samples.

Results

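The sgRNAs described here target 16 genes that encode subunits of the chromatin remodellers INO80 and SRCAP. They were taken as every sgRNA whose target in the screen tables was 1 of these genes, which gave 159 of the 7855 sgRNAs of EPIKOL, a pooled knockout library against chromatin regulators. Each gene had 10 sgRNAs except INO80E, which had 9, so that 119 sgRNAs fell on 12 INO80 genes and 40 on 4 SRCAP genes. The sgRNAs are named by their library number, and their sequences were not used here.

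INO80 and SRCAP are large ATP-driven machines of the same remodeller family. SRCAP replaces histone H2A in nucleosomes with the variant H2A.Z, while INO80 slides nucleosomes and has been linked to H2A.Z dynamics, transcription, replication and DNA repair. Each is built on a large ATPase and carries actin-related proteins and the RUVBL1 and RUVBL2 helicases, and several of their subunits also serve in other complexes.

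The screen was made in Cas9-expressing T1-160 cells, a Taxol-resistant derivative of SUM159PT, a triple-negative breast cancer line. All cells received EPIKOL by lentivirus and puromycin selection with verapamil, a blocker of drug efflux. The AP group (2 libraries, replicates 1 and 3) was collected right after that selection without drug, and the cells were then split and grown to 16 population doublings in DMSO (3 libraries) or in 160 nM Taxol (3 libraries). The screen rests on 1 resistant line, the DMSO cells are Taxol-resistant too, and sgRNAs lost before the AP collection could not be seen. The labels do not say whether replicates were separate infections or cultures. Differences among libraries of a group may therefore be technical, and no p-value below extends to independent repeats of the screen.

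Read numbers recovered from the deposited normalized counts came to 2045984 to 11771420 per library, or 260.5 to 1499 per sgRNA, with Taxol 2 and Taxol 3 the shallowest. The number of a library within its group was read from the order of the values in the tables, which was assumed to follow the replicate numbers. The member sgRNAs took 1.44% to 1.84% of the reads, and none was at 0 in any library. The 10 top sgRNAs took 6.23% to 10.6% of the reads of a Taxol library, compared with 2.36% to 2.80% in DMSO and 1.53% to 2.73% in AP, and the part of this skew in the results below was not tested.

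A log2 fold change (LFC) is the difference between group means of log2(normalized count + 1), and for a gene the LFCs of its sgRNAs were averaged. On this scale, changes of sgRNAs at low counts come out too small. Genes were called by robust rank aggregation (RRA), which asks whether the sgRNAs of a gene crowd at the low (depleted) or the high (enriched) end of all sgRNAs, at an adjusted p under 0.05. The zero of the scale is not fixed by the 80 non-targeting sgRNAs, whose median LFC was 0.11 for Taxol vs DMSO, 0.43 for DMSO vs AP and 0.69 for Taxol vs AP. Centring each library on them moved the median of all genes by -0.17, -0.31 and -0.53 in the same order. With that centring 10, 14 and 12 of the 16 members had an LFC below 0, against 7, 7 and 8 on the deposited scale, and the genes called over the whole library in Taxol vs DMSO went from 2 depleted and 1 enriched to 2 and 4.

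ACTR6, an actin-related protein of the SRCAP complex, was the single member that passed the adjusted threshold, as depleted in DMSO compared with AP. In that comparison 1 of 16 members was called depleted and 0 enriched, beside 2.05% and 0.128% of the 779 genes. For Taxol vs AP 0 members were called in either direction, beside 4.62% of all genes depleted and 1.41% enriched. In Taxol vs DMSO 0 members were called, beside 0.257% depleted and 0.128% enriched.

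At an unadjusted exact RRA p under 0.05, INO80 was low in Taxol vs DMSO, ACTR6 was low in DMSO vs AP and in Taxol vs AP, and INO80D and TFPT were high in Taxol vs AP. This was 1 of 16 members low and 0 high in Taxol vs DMSO, beside 4.75% and 6.55% of all genes. In DMSO vs AP it was 1 low and 0 high, beside 11.8% and 8.09%. For Taxol vs AP it was 1 low and 2 high, beside 13.1% and 8.34%. Limma on gene means, which tests directly against the spread between libraries, called 0 of the 16 members in each comparison, beside 0.128% of all genes in Taxol vs DMSO, 2.18% in DMSO vs AP and 0.128% in Taxol vs AP. At an unadjusted limma p under 0.05 it gave 4 members as higher in Taxol vs AP, INO80B, INO80D, NFRKB and TFPT, and 0 as lower, beside 16.9% and 6.29% of all genes. It gave 0 members in Taxol vs DMSO, beside 4.62% of all genes higher and 1.54% lower, and 0 in DMSO vs AP, beside 12.5% and 8.73%.

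The median LFC of the members was 0.10 in Taxol vs DMSO against 0.03 over all genes, 0.01 against 0.15 in DMSO vs AP, and -0.01 against 0.20 in Taxol vs AP. The 4 SRCAP genes had medians of -0.01, -0.13 and -0.12 in the same order, and the 12 INO80 genes 0.16, 0.06 and 0.06. The comparisons with AP share the AP libraries, so their values are given side by side and are not independent.

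INO80 itself, the ATPase of its complex, was lower in Taxol than in DMSO. The geometric mean of the normalized counts over its 10 sgRNAs was 365.4, 322.7 and 294.4 in DMSO 1 to 3, and 252.3, 282.2 and 257.9 in Taxol 1 to 3. All Taxol libraries were below all DMSO libraries, and INO80 was the 1 member of 16 in that position, beside 4.49% of all genes. The LFC was -0.31 ± 0.13 (SD between libraries, n = 3 and 3; 95% interval -0.74 to 0.13), the 60th lowest of 779, with 7 of 10 sgRNAs lower. The exact RRA p was 0.0386 before and 0.917 after adjustment, so INO80 was not called. The LFC stayed between -0.38 and -0.22 with any library left out.

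INO80 guides 2909 and 2908 had the lowest LFC in Taxol vs DMSO, -1.19 and -1.07. Guide 2909 stood at 509.6, 1114 and 1064 in DMSO and at 263.1, 371 and 517.2 in Taxol, so that Taxol 3 lay within the DMSO range. Guide 2905 ran the other way, at 125.5, 199.1 and 110.7 in DMSO and 577.6, 210.4 and 165.1 in Taxol, an LFC of 0.95. Against AP, guide 2909 had LFCs of 1.22 in DMSO and 0.07 in Taxol, and guide 2908 of 0.70 and -0.33. For guide 2909 every DMSO library was above both AP libraries. Compared with AP, guide 2905 had the lowest INO80 LFC in DMSO, -2.0, with counts of 967.9 and 617.4 in AP 1 and AP 3 and of 168.1, 284.8 and 149 in DMSO 1 to 3, and the groups did not overlap. It was -1.0 in Taxol vs AP, and these comparisons share libraries with each other.

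As a gene, INO80 had similar levels in DMSO and AP on the deposited scale, where its means were 475.3 and 411.4 in AP against 489.1, 461.5 and 395.9 in DMSO. The groups overlapped, the LFC was 0.02 (-0.29 when centred on the non-targeting sgRNAs), and the sgRNAs spread from -2.0 to 1.22. In Taxol vs AP its means were 362.8 and 315.6 in AP against 272.5, 304.7 and 280.8 in Taxol, with every Taxol library below both AP libraries. The LFC was -0.24 (95% interval -0.67 to 0.19), with an exact RRA p of 0.214. Centring on the non-targeting sgRNAs moved this comparison by -0.53 and Taxol vs DMSO by -0.17. The size of both INO80 differences therefore depends on the zero used.

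The actin-related subunits ACTR5 and ACTR8, which contact the nucleosome or its linker DNA, were not called. ACTR5 had an LFC of -0.22 in DMSO vs AP, with 8 of 10 sgRNAs lower, and -0.07 in Taxol vs AP. Leaving out 1 library moved the first between -0.39 and -0.06, both ends reached by dropping an AP library, and the second between -0.26 and 0.10. Its sgRNAs in DMSO vs AP ran from -1.21 to 1.95, the highest being guide 83, which stood highest in DMSO 2. ACTR8 had LFCs of -0.16 in Taxol vs DMSO, 0.01 in DMSO vs AP and -0.11 in Taxol vs AP.

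INO80B and INO80C, conserved subunits that work with the ATPase and ACTR5, lay on opposite sides of the library median after culture. INO80C had an LFC of -0.44 ± 0.09 (SD, n = 3 and 2; 95% interval -0.88 to 0.01) in DMSO vs AP. Its geometric means were 535.7 and 535.1 in AP and 408.3, 417 and 362 in DMSO, so that the groups did not overlap, but the exact RRA p was 0.0575. Its LFC in Taxol vs AP was -0.19, again with every Taxol library below both AP libraries, while the median of its sgRNA LFCs was 0.13. Its LFC in Taxol vs DMSO was 0.20, with every Taxol library above every DMSO library. INO80C guide 2921 stood at 118.3 and 119.9 in AP and at 33.62, 51.25 and 41.21 in DMSO, an LFC of -1.50 on 27 and 26 reads in DMSO 1 and DMSO 3.

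INO80B had LFCs of 0.41 in DMSO vs AP and 0.59 in Taxol vs AP (95% interval 0.09 to 1.08), neither of them past the RRA threshold. Both were below the medians of the non-targeting sgRNA LFCs, 0.43 and 0.69 in the same order. Centring each library on the median of these sgRNAs is another reference, which moved the comparisons by less, -0.31 and -0.53. With it both LFCs of INO80B kept their sign. Its geometric means were 446.2 and 481.6 in AP and 834.4, 713.6 and 568.2 in Taxol, with no overlap. Of its sgRNAs, 3 were far higher in 1 Taxol library than in the others. INO80B guide 2920 stood at 11660 in Taxol 1 against 1131 and 1701 in Taxol 2 and Taxol 3, guide 2913 at 7105 in Taxol 1 against 781.5 and 1282, and guide 2914 at 4408 in Taxol 2 against 342.8 and 321.1. The median of its 10 sgRNA LFCs was 0.42, below their mean of 0.59.

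Such sgRNAs, at least 4 times as high in 1 library as in the next of the same group, made up 17 of the 159 member sgRNAs (10.7%) in Taxol and 12 (7.55%) in DMSO. Over all sgRNAs the shares were 12% and 7.43%, and among the non-targeting ones 12.5% and 6.25%. Of the 17, 58.8% stood highest in Taxol 1, beside 58.1% over all sgRNAs, and of the 12 in DMSO, 83.3% stood highest in DMSO 2, beside 64.2%. This ratio was chosen after the values were seen and is a description.

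INO80D, a subunit found in animals, had the highest member LFC in Taxol vs AP. Its geometric means were 483.4 and 578.9 in AP 1 and AP 3 and 1023, 1012 and 655.2 in Taxol 1 to 3. Every Taxol library was above both AP libraries, Taxol 3 by the least. The LFC was 0.73 ± 0.32 (SD, n = 3 and 2), with 9 of 10 sgRNAs higher, an exact RRA p of 0.0354 and an adjusted p of 0.496. The non-targeting sgRNAs had a median LFC of 0.69 in the same comparison, close to that of INO80D. Centring each library on them moved this comparison by less, -0.53, and the LFC of INO80D kept its sign. Guide 2934 was the highest sgRNA at 1.63, with 426.1 and 973.6 in AP and 1196, 4569 and 1454 in Taxol. Guides 2933, 2936 and 2939 each stood at least 4 times above the other Taxol libraries in Taxol 1, Taxol 2 and Taxol 3 respectively. The median of its sgRNA LFCs was 0.84, above their mean. In DMSO vs AP the LFC of INO80D was 0.30, and it was -0.004 when centred on the non-targeting sgRNAs.

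TFPT, known as a fusion partner of TCF3 in childhood leukaemia, had geometric means of 113.7 and 180.4 in AP against 260.8, 178.8 and 217.4 in Taxol. Taxol 2 lay below AP 3, so the groups overlapped. The LFC was 0.59 ± 0.35 (SD, n = 3 and 2), with 6 of 10 sgRNAs higher, an exact RRA p of 0.0204 and an adjusted p of 0.412. Leaving out 1 library moved it between 0.26 and 0.92, and the median of its sgRNA LFCs was 0.41. Centred on the non-targeting sgRNAs it was 0.07.

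The sgRNAs of TFPT disagreed among themselves, with an SD of 1.27 between them, the 5th largest of 779 genes in Taxol vs AP. Guide 6449 stood at 27.86 and 114.8 in AP and at 298.7, 478.6 and 105.4 in Taxol, an LFC of 2.10 with Taxol 3 inside the AP range. Guide 6442 stood at 194 and 296.9 in AP and at 2992, 322.4 and 888.9 in Taxol, an LFC of 1.98 with no overlap. Guide 6448 had the highest LFC, 2.40, on only 8 and 26 reads in AP 1 and AP 3 and 5 reads in Taxol 2. Guide 6444 went the other way, from 386.4 and 310.6 in AP to 99.56, 249.1 and 105.4 in Taxol, an LFC of -1.32.

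NFRKB, a large subunit that binds UCHL5, had geometric means of 340.9 and 410.4 in AP and 523.1, 484 and 774.1 in Taxol. The groups did not overlap, and the LFC was 0.63 (95% interval 0.12 to 1.15), with 9 of 10 sgRNAs higher and an exact RRA p of 0.0741. Centred on the non-targeting sgRNAs the LFC was 0.11. NFRKB guide 4073 stood 8.4 times as high in Taxol 3 as in the next Taxol library. In DMSO vs AP the LFC was 0.31, with overlapping groups.

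INO80B, INO80D and NFRKB were the 3 members of 16 whose gene means were higher than both AP libraries in every Taxol library, beside 32.3% of all genes. Members lower in every Taxol library were also 3, INO80, INO80C and VPS72, beside 14.5%. In DMSO vs AP 2 members were higher throughout, INO80B and INO80D, beside 29.3%, and 2 were lower, INO80C and ACTR6, beside 14.1%. In Taxol vs DMSO INO80C was the 1 member higher throughout, beside 6.29%.

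The remaining INO80 genes were not called in any comparison. INO80E, another animal subunit, had the most uniform sgRNAs of the members in Taxol vs AP, all between -0.41 and 0.55, with an SD of 0.31 that ranked 773rd of 779. MCRS1, which also belongs to the NSL acetyltransferase complex, had an LFC of -0.10 in DMSO vs AP and of 0.21 in Taxol vs AP. MCRS1 guide 3606 had the lowest LFC of the gene in both, -1.84 and -1.35. UCHL5, a deubiquitinase shared with the proteasome, stayed between -0.14 and 0.15.

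YY1, a zinc finger transcription factor that joins INO80 in animals, had LFCs of -0.21 in DMSO vs AP and 0.06 in Taxol vs AP. Its sgRNAs pointed both ways, from guide 7168 at -1.58 in DMSO vs AP to guide 7161 at 2.20 in Taxol vs AP.

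SRCAP, the ATPase of the other complex, differed between groups by less than its spread between libraries on the deposited scale. Its geometric means were 200.1 and 380.3 in AP 1 and AP 3 and 244.4, 277.6 and 298.7 in DMSO 1 to 3. All DMSO libraries lay between the AP libraries, and the LFC of -0.02 had a 95% interval of -0.57 to 0.54. For Taxol vs AP the means were 152.8 and 291.7 in AP and 225, 225.5 and 190.8 in Taxol, again between the AP libraries, with an LFC of 0.01 that was -0.51 when centred on the non-targeting sgRNAs. In Taxol vs DMSO they were 182.6, 194.1 and 222.1 in DMSO and 208.3, 208.9 and 175.2 in Taxol, an LFC of -0.01 with overlapping groups.

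AP 1 was low for SRCAP as a gene, so leaving out AP 1 or AP 3 moved its LFC in DMSO vs AP between -0.48 and 0.44. Its sgRNAs had an SD of 1.14 in this comparison, the 23rd largest of 779 genes. Guide 5983 stood at 683.3 and 403.7 in AP and at 87.16, 194.1 and 190.2 in DMSO, an LFC of -1.82. In the Taxol vs AP table it stood at 521.5 and 309.6 in AP and at 114, 141.6 and 277.9 in Taxol, an LFC of -1.28. Both cultures were below both AP libraries for this sgRNA. Guides 5981, 5985 and 5988 had LFCs of 1.21, 1.14 and 1.26 in DMSO vs AP.

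ACTR6 was depleted in DMSO compared with AP. Its geometric means were 445.1 and 363 in AP 1 and AP 3 and 295.5, 359.3 and 227.1 in DMSO 1 to 3. All DMSO libraries were below both AP libraries, though DMSO 2 by a small margin. The LFC was -0.48 ± 0.30 (SD, n = 3 and 2; 95% interval -0.98 to 0.03), the 70th lowest of 779 genes. The exact RRA p was 0.000219 and the adjusted p 0.0189, while limma on the gene mean gave an adjusted p of 0.265.

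Of the 10 sgRNAs of ACTR6, 3 were far lower in DMSO than the others. Guide 98 stood at 769.2 and 655.4 in AP and at 146.9, 234.4 and 130 in DMSO, an LFC of -2.10 ± 0.65 (SE). Guide 99 stood at 385.9 and 599.6 in AP and at 78.44, 153.8 and 125.2 in DMSO, an LFC of -2.06 ± 0.67. Guide 97 stood at 333.2 in AP 1 but 43.93 in AP 3, and at 19.92, 23.53 and 17.43 in DMSO, an LFC of -2.53 ± 0.85.

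For guides 98 and 99 every DMSO library was far below both AP libraries, while guide 97 was already low in AP 3, with 37 reads there and 16, 28 and 11 reads in DMSO. The other 7 sgRNAs of ACTR6 had LFCs from -0.99 to 1.37, and 5 of the 10 were lower and 5 higher, so that the median of the sgRNA LFCs was 0.05 while their mean was -0.48. Guide 93 was the highest, with 262.9 and 210.2 in AP and 806.8, 913.3 and 307.5 in DMSO and no overlap. The SD between the sgRNAs of ACTR6, 1.36, was the 1st of 779 genes in size. By limma on single sgRNAs the 3 low ones had unadjusted p values of 0.00451, 0.00666 and 0.00799, and none passed adjustment.

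Leaving out DMSO 1, DMSO 3, AP 1 or AP 3 ended the call of ACTR6, with adjusted RRA p values of 0.127, 0.153, 0.187 and 0.152, while the LFC stayed between -0.63 and -0.30. Without DMSO 2 the call was kept, at an adjusted p of 0.0288.

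The geometric means of ACTR6 in the Taxol vs AP table were 339.7 and 278.6 in AP and 287.4, 261.5 and 190.3 in Taxol. Taxol 1 lay between the AP libraries, so the groups overlapped. The LFC was -0.34 ± 0.28 (SD, n = 3 and 2), with 7 of 10 sgRNAs lower, an exact RRA p of 0.00363 and an adjusted p of 0.0707. Centred on the non-targeting sgRNAs, ACTR6 was called in this comparison too, at an adjusted p of 0.0397.

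Guides 98 and 99 were low in this table too, which shares the AP libraries. Guide 98 stood at 587 and 502.7 in AP and at 143.6, 207.6 and 122.2 in Taxol, an LFC of -1.81. Guide 99 stood at 294.5 and 459.9 in AP and at 95, 129.4 and 112.6 in Taxol, an LFC of -1.71. Guide 97 stood at 254.3 and 33.7 in AP and at 28.12, 34.19 and 19.17 in Taxol, so that Taxol 2 was not below AP 3. Guide 96 was higher than AP in every Taxol library, at an LFC of 1.37. Between Taxol and DMSO directly, ACTR6 had an LFC of 0.09 (95% interval -0.37 to 0.54) and exact RRA p values of 0.133 for enrichment and 0.305 for depletion.

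VPS72, which hands H2A.Z to the complex, had LFCs of -0.23 in DMSO vs AP and -0.20 in Taxol vs AP (95% interval -0.62 to 0.24). The DMSO vs AP value was -0.53 without DMSO 2, -0.09 without DMSO 1 and -0.09 without DMSO 3. Its lowest sgRNA in DMSO vs AP was guide 6992 at -1.70. ZNHIT1, a zinc finger subunit of SRCAP, had LFCs of -0.24 in Taxol vs DMSO, 0.15 in DMSO vs AP and -0.04 in Taxol vs AP. Without DMSO 2 the first was 0.01 and the second -0.12. ZNHIT1 guide 7389 had the lowest of its LFCs in Taxol vs AP, -1.69.

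By limma on single sgRNAs, 0 of the 159 passed an adjusted p of 0.05 in any comparison, nor did any of the 7855. At an unadjusted p under 0.05, 9 were lower and 2 higher in DMSO vs AP, beside 3.65% and 3.21% of all sgRNAs. Against AP, the Taxol libraries had 8 lower and 4 higher, beside 3.9% and 2.24%. In Taxol vs DMSO 1 was lower and 3 higher, beside 1.55% and 2.01%. Of the 9 lower sgRNAs in DMSO vs AP, 5 were among the 40 of the SRCAP genes and 4 among the 119 of the INO80 genes. The 5 included ACTR6 guides 97, 98 and 99, described above.

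The agreement of sgRNA differences between library pairs that share no library is given as a description, over sgRNAs that share libraries, scaling and, within a gene, a target. Over the 159 sgRNAs, DMSO 1 minus AP 1 and DMSO 3 minus AP 3 had a Pearson r of 0.25, against 0.17 over all 7855. For Taxol 1 minus AP 1 and Taxol 3 minus AP 3 it was 0.19 against 0.18. For same-numbered pairs of Taxol minus DMSO it lay between -0.07 and 0.02 for the member sgRNAs and between 0.02 and 0.06 over all.

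Genes that the remodellers share with other complexes, or that handle H2A.Z, were read as a list of 8 with 80 sgRNAs. The H2A.Z genes themselves were looked for by name and were not among the genes tested. DMAP1, a subunit of SRCAP and of the NuA4-TIP60 acetyltransferase, was called depleted in both comparisons with AP, at LFCs of -0.97 in DMSO and -0.74 in Taxol, with adjusted RRA p values of 0.000353 and 0.00247. It was the 1 gene of 8 called in each, beside 2.05% of all genes called depleted in DMSO vs AP and 4.62% in Taxol vs AP. At an unadjusted RRA p under 0.05 the list also held RUVBL1 (-0.59), ACTL6A (-0.52) and ACTB (-0.61) as low in DMSO vs AP. With DMAP1 this was 4 of 8, beside 11.8% of all genes. In Taxol vs DMSO the list held ANP32E, a chaperone that removes H2A.Z, at -0.40, and the helicase RUVBL2 at 0.33. This was 1 of 8 low and 1 high, beside 4.75% and 6.55% of all genes. The list had a median LFC of -0.35 in DMSO vs AP and -0.22 in Taxol vs AP, against 0.15 and 0.20 over all genes and 0.01 and -0.01 over the 16 members.

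The list for NuA4-TIP60, a related complex, had 12 genes, with medians of -0.02 and -0.11 in the same comparisons. DMAP1 and the other shared subunits of the list above were left out of it, and the ATPase EP400 was in both lists. Its medians and counts therefore do not cover the whole complex. The NuA4-TIP60 list held 1 gene called depleted in DMSO vs AP, MRGBP at -0.72, beside 2.05% of all genes, and 1 called enriched in Taxol vs AP, MORF4L2 at 1.16, beside 1.41%. At an unadjusted RRA p under 0.05, 3 of the 12 were low in Taxol vs AP, KAT5 at -0.44, ING3 at -0.36 and MRGBP at -0.47, beside 13.1% of all genes. By the same p, ING3 was low in DMSO vs AP at -0.26, and MORF4L2 was high in DMSO vs AP at 0.67 and in Taxol vs DMSO at 0.44. Over all genes, 11.8% were low and 8.09% high in DMSO vs AP, and 6.55% were high in Taxol vs DMSO.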

How the data were processed

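Deposited sgRNA tables, 1 for each of 3 comparisons, hold counts the authors had normalized, several libraries to a cell. The submitters' processing notes name MAGeCK 0.5.8, with trimming and mapping of reads not given in the sources used here. Because tables were normalized separately, no test crossed tables. The tables also hold the authors' LFC, p-values and false discovery rates per sgRNA, and other files the same per gene, none of which were used. An AP cell holds 3 values, and the labels name AP replicates 1 and 3. Values 1 and 3 were taken as these, an assumption that rests on value order, as do all library numbers, and 2 value columns (1 in each AP table) were not used. Of 7856 rows per table, 1 named no sgRNA and was at 0 throughout, and it was dropped.

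The members and lists were chosen with earlier results of these data known. In R 4.3.3, limma 3.58.1 (lmFit, eBayes with trend) was run on log2(normalized count + 1) of every sgRNA. Ranks came from the moderated statistic, and RRA over the lowest or highest 25% of ranks gave an exact one-sided p for independent uniform ranks, adjusted by Benjamini-Hochberg over 779 genes with at least 3 sgRNAs in each direction. This p compares ranks of sgRNAs, so the spread between libraries enters only through the ranking. Limma was also run on gene means, with 95% intervals. Named genes were all 16 members, with values per library for those past an unadjusted RRA p of 0.05 and for both ATPases, and listed genes past that p. Single sgRNAs and members named for groups that did not overlap were picked after their values were seen. Reads were recovered as multiples of a fixed step, with 98.7% to 99.99% of values whole within 0.1 read. The exact RRA p was tested on drawn uniform ranks, and the limma and RRA calls on simulated libraries.

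In Taxol vs DMSO, deviations from the group means of same-numbered libraries correlated at 0.13 to 0.21 for all 3 pairs, so the numbers were taken to pair these libraries. The main tests did not use this pairing, which entered only as the replicate block listed below. Against AP the deviations correlated at -0.02 to 0.04, over 2 pairs in each comparison. Alternatives were a pseudocount of 10, leaving out sgRNAs under a mean of 50, centring on the non-targeting or on all sgRNAs, ranking by LFC, RRA over 10% of ranks, the median of the sgRNA LFCs, limma on gene means, a replicate block and leaving out each library.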

Additional observations from a re-analysis of the deposited data

How the results depend on the processing

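No member was called enriched in any comparison under any alternative that was run, and no member was called depleted in Taxol vs DMSO. The 1 member called depleted in DMSO vs AP, ACTR6, became 0 by limma on gene means and 0 to 1 when a library was left out. In Taxol vs AP the 0 called as depleted became 1, ACTR6, when centred on the non-targeting sgRNAs and 1 when sgRNAs were ranked by LFC (adjusted p 0.0397 and 0.0111), and stayed at 0 when a library was left out. Over its alternatives the adjusted p of ACTR6 in DMSO vs AP ran from 0.0146 to 0.265. With the replicate number as a block, which for the comparisons with AP drops DMSO 2 or Taxol 2, no call changed, and ACTR6 had an LFC of -0.63 and an adjusted p of 0.0211 in DMSO vs AP. A lone AP library left after omission was assumed to vary like the other groups.

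The median LFC of the members moved from 0.10 to -0.072 in Taxol vs DMSO, from 0.01 to -0.30 in DMSO vs AP and from -0.01 to -0.54 in Taxol vs AP when centred on the non-targeting sgRNAs. An alternative chosen after seeing the data, the difference between groups in the median level over the sgRNAs of a gene, gave -0.066 in Taxol vs DMSO and -0.16 in Taxol vs AP. The median of the sgRNA LFCs, in place of their mean, turned the called LFC of ACTR6 in DMSO vs AP from -0.48 to 0.048. Of the fold changes of single members, 14 of 48 changed sign when centred on the non-targeting sgRNAs, 37 of 256 when a library was left out and 31 of 272 under the other alternatives that could move them.

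Few reads limit ACTR6 guide 97, INO80C guide 2921 and TFPT guide 6448.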
